A study of Mus musculus with 66 samples.

Results

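The genes described here are 39 that act in the G2 phase and in mitosis, out of 24410 gene symbols in the deposited table of normalised read counts. They were chosen by symbol for their roles in the cell cycle, with earlier results of these data known. All 39 were in the table and reached the minimum level for testing. By role they comprise CDK1 with its cyclins and its activator (Cdk1, Ccnb1, Ccnb2, Ccna2, Cdc25c), the kinases Aurka and Plk1, the spindle checkpoint (Bub1, Bub1b, Mad2l1, Ttk) and the centromere and kinetochore (Cenpa, Cenpe, Cenpf, Ndc80, Nuf2, Spc25). The chromosomal passenger complex (Aurkb, Birc5, Incenp, Cdca8), spindle motors and microtubule proteins (Kif11, Kif2c, Kif4, Tpx2, Hmmr, Nusap1) and the proteins of the midzone and cytokinesis (Kif20a, Kif23, Prc1, Anln, Ect2) follow. The last are genes of mitotic exit and ubiquitin ligation (Cdc20, Ube2c, Cdca3), chromosome proteins (Top2a, Mki67) and the transcription factors Foxm1 and Mybl2.

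Entry into mitosis is driven by CDK1 bound to cyclins A and B. The kinetochore and the checkpoint hold the cell until every chromosome is attached, and ubiquitin ligation of cyclin B and other proteins ends the phase. Most of these genes are transcribed in a wave late in the cycle: the DREAM complex represses them early, and MYBL2 and then FOXM1 activate them. Neural progenitors of the embryonic spinal cord divide beside the lumen, leave the cycle as neurons, and later turn to making glia; NFIA is a transcription factor of that later phase.

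The RNA came from mouse embryonic stem cells that were differentiated into ventral spinal cord progenitors, fixed in glyoxal, stained inside the cell and sorted, with 10000 to 15000 cells per library. All cultures shared the same factors: bFGF (10 ng/ml) at the start, the WNT pathway activator CHIR99021 (5 µM) added on day 2, retinoic acid (100 nM) between days 3 and 5, and SAG, which activates Smoothened (10 nM), added on day 3 and kept. The 66 libraries (29 MUT and 37 WT) fell into 26 groups by genotype, day (D5, D7, D9, D11), progenitor domain (p1, which the series describes as p0-p1, p2 and pM) and NFIA gate, where NFIAp cells stained for NFIA and NFIAn cells did not. All MUT libraries were NFIAn, as were WT libraries at D5 and D7. At D9 the WT p2 and pM cells were sorted into both gates and WT p1 cells were NFIAn, and at D11 all WT libraries were NFIAp. The MUT D9 p2 group was a single library (1), 10 groups had 2 and 15 had 3. What is mutated in MUT is not in the labels. Separate cultures are not stated for the replicates either, and a p-value then covers the spread among libraries alone, which may be technical.

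The recovered reads per library ranged between 8.738 M and 30.83 M, with a median of 24.33 M. The sorted domains carried their markers in WT: at D9 the sum of Olig1, Olig2 and Mnx1 was 2229 to 5922 normalised counts in pM libraries against 18.68 to 150 in p2 and p1 libraries, Foxn4 was 306.7 to 731.7 in p2 libraries against 0.0 to 49.28 in the other domains, and the sum of Dbx1, Dbx2 and Prdm12 was 9010 to 10740 in p1 libraries against 179.4 to 1219 in the others. Summed pluripotency markers were between 11.07 and 682.7 in all libraries. Libraries of D7 replicate 3 and of D9 replicates 2 and 3 (18 in all) stood apart in the sum of their normalised counts, which was 26.59 M to 40.23 M, against 17.85 M to 25.5 M in the other 48. The share of these sums in genes of ribosomal proteins was 7.594% to 19.23% in the 18, against 2.533% to 10.99% in the rest, and these ranges overlap. The ribosomal share was used as a covariate in a further fit, chosen after seeing the data, whose counts are given beside the results they change.

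Promoters of these genes were searched for 2 short sequences, as a description. The genes were picked as cell cycle genes, so the matches are not independent of that choice. RefSeq promoter windows (GRCm38.p6) of 300 bases, 250 before and 50 after the start, were at hand for 32 of the 39 symbols in 34 entries. The letters TTTGAA or, on the other strand, TTCAAA, which are the core of the cell cycle homology region bound by the DREAM and MuvB complexes, occurred in 26 of the 34 windows (76.5%) against 17.9% of all 32851 windows. CCAAT or ATTGG, the letters bound by NF-Y, occurred in 26 of 34 (76.5%) against 37.4% of all windows, and both kinds in 67.6% against 6.95%. The 2 kinds of match overlapped in 1 window. Ccna2, Cdc25c, Aurkb, Incenp, Tpx2, Kif20a and Foxm1 were not looked at. The 120 bases upstream of the start are shown for 6 genes picked by hand as examples, and bases -200 to -81 for Mki67, 5′ to 3′ on the coding strand, with these letters in capitals.
Cdk1: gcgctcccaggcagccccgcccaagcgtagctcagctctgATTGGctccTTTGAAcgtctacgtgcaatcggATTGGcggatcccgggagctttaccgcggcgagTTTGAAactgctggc
Ccnb1: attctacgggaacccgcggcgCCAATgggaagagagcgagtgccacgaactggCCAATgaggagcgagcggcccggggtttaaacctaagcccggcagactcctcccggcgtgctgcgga
Ube2c: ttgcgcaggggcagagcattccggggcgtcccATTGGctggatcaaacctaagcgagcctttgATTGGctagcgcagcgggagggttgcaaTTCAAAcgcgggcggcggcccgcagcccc
Cdc20: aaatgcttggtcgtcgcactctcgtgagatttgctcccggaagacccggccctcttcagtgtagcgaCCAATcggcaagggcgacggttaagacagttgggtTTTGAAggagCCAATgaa
Kif11: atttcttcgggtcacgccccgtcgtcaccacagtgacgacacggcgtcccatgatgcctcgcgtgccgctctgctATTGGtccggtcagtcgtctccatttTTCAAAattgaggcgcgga
Top2a: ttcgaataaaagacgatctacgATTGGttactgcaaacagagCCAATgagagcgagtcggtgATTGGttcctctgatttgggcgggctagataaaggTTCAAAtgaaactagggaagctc
Mki67: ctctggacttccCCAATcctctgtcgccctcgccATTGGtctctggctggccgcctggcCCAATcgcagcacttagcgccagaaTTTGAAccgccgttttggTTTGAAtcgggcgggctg
The windows are chr10:69352913-69353032 (minus strand) for Cdk1, chr13:100786487-100786606 (minus) for Ccnb1, chr2:164769809-164769928 (plus) for Ube2c, chr4:118437344-118437463 (minus) for Cdc20, chr19:37376262-37376381 (plus) for Kif11, chr11:99024190-99024309 (minus) for Top2a and chr7:135716460-135716579 (minus) for Mki67. Cdk1 holds TTTGAA at -71 and -15, counted from the start, and ATTGG at -80 and -48. Ccnb1 has a pair of CCAAT matches and no TTTGAA or TTCAAA in its window. The examples are not typical in the place of the match. In Aurka, Plk1, Cenpa, Spc25, Ttk and Hmmr, among others, TTTGAA or TTCAAA occurred only at or after the start. A match describes the sequence only.

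Over the whole experiment the 39 genes were highest at D5 or in the NFIAp p2 cells of D9, and lowest at D11. The highest single library was one of WT D9 p2 NFIAp for 15 genes and a D5 library for 17, and no D11 library was the highest for any. The lowest was a D11 library for 36 genes, and for 29 of these it was replicate 2 of WT D11 p1 or pM. To set the genes side by side, each was centred on its mean over the 66 libraries on the log2(normalised count + 1) scale, and the 39 centred values were averaged. In WT this mean was 0.40, 0.46 and 0.40 at D5 in p1, p2 and pM, then 0.18, 0.31 and 0.09 at D7, then -0.56, 0.07 and -0.81 among D9 NFIAn cells. In WT NFIAp cells it was 0.61 in p2 and -0.17 in pM at D9, and -1.12 in p1, -0.45 in p2 and -1.17 in pM at D11. In MUT cells it was 0.30, 0.49 and 0.49 at D5, 0.21, 0.39 and 0.18 at D7, -0.13, 0.32 and -0.33 at D9, and -0.67, -0.19 and -0.86 at D11. The 2 libraries of each WT group at D11 lay apart, at -1.70 and -0.64 in pM. In bulk RNA, fewer dividing cells and less of each transcript per dividing cell cannot be told apart.

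**Figure D1:**
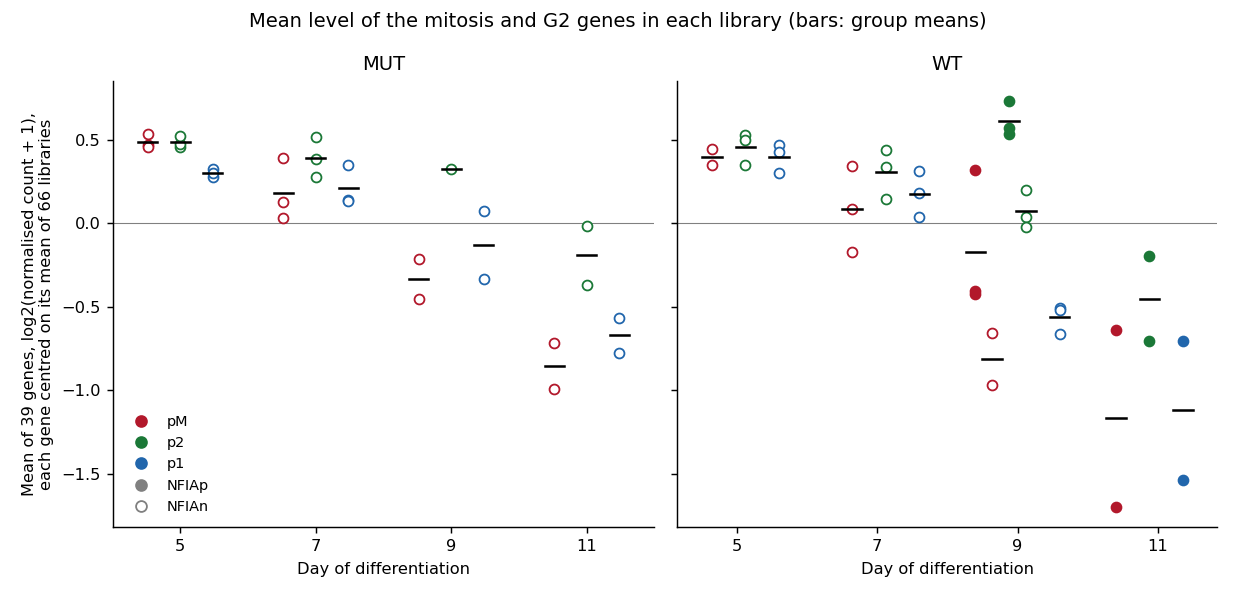
Mean of the 39 row-centred genes (log2 scale) in each of the 66 libraries, 1 point per library, by day, with a panel for each genotype, a colour for each domain, filled points for NFIAp and open points for NFIAn, and bars at the group means. In WT the group means lie between 0.40 and 0.46 at D5 and between -1.17 and -0.45 at D11, and the WT p2 NFIAp cells of D9 lie at 0.61.

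**Figure D2:**
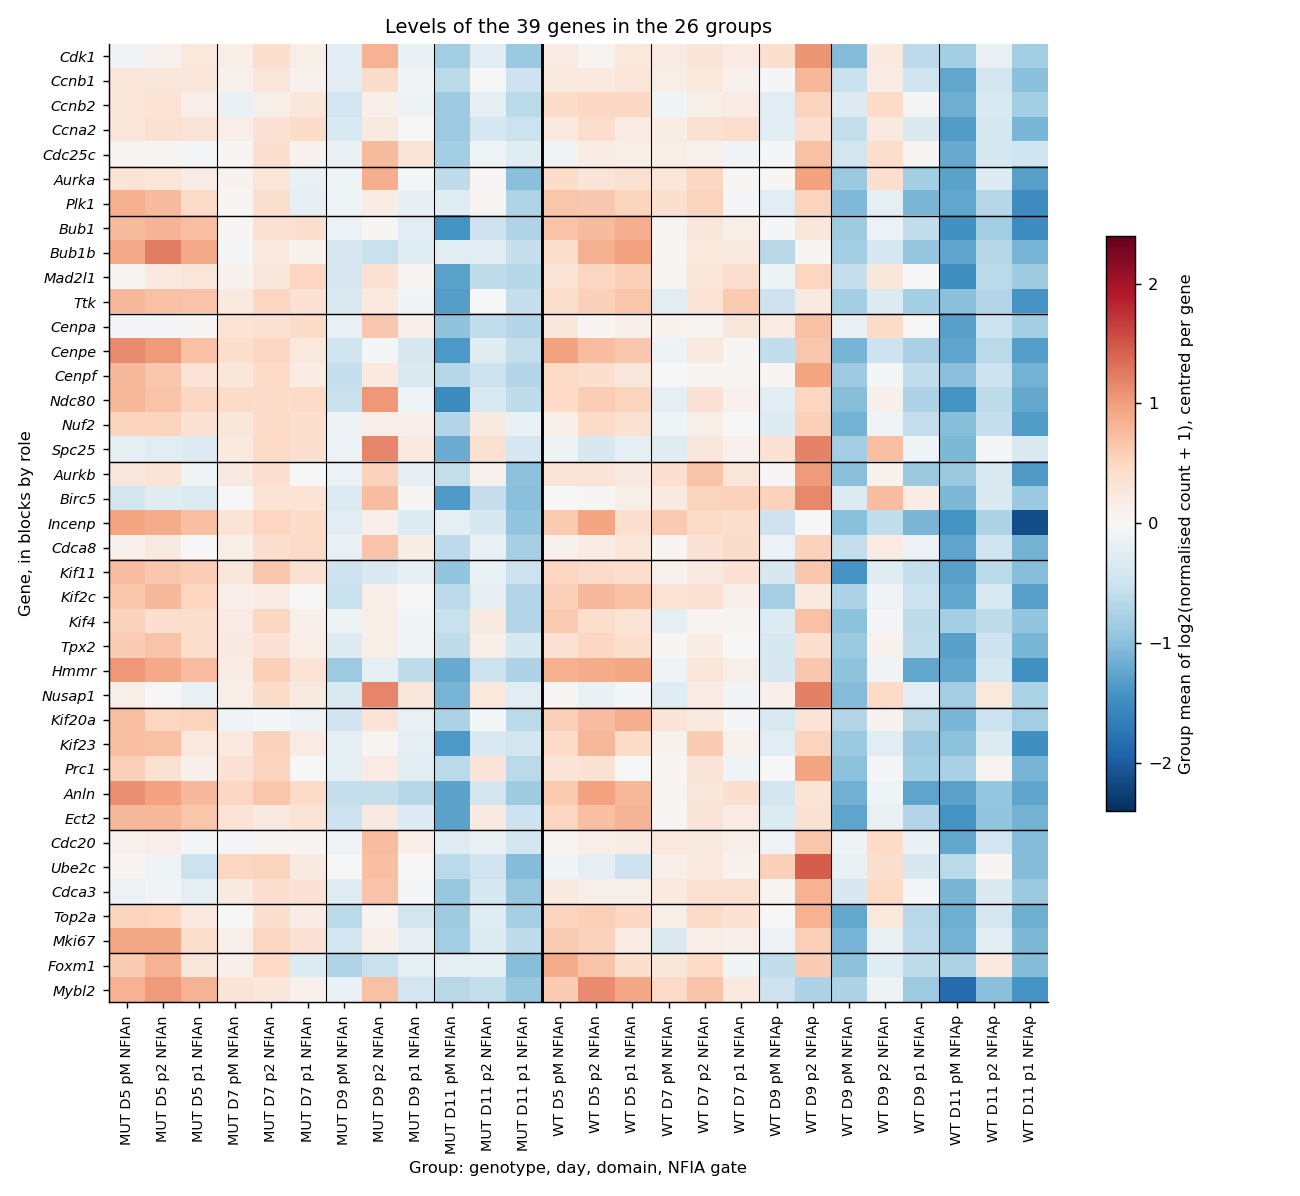
Group means of each of the 39 genes, centred by gene (log2 scale, colour), with genes in rows by role and the 26 groups in columns. The D11 columns hold the lowest group mean of 36 genes, and the WT D9 p2 NFIAp column holds the highest of 16.

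At D9, WT cells sorted as NFIA-positive carried more RNA of Cdk1 and of 3 spindle and kinetochore genes than NFIA-negative cells of the same domain. Fitted over p2 and pM together, 38 of the 39 genes were higher in NFIAp cells, with a median log2 difference of 0.64 against 0.025 over all 15714 genes tested. The call, here and below an adjusted p under 0.05 in limma with Benjamini-Hochberg adjustment over all genes tested, was passed by 4 genes, all higher, while 0.146% of all genes were called higher and 0.0573% lower. At an unadjusted p under 0.05 there were 26, against 1355 of all 15714 genes. In 13 genes every NFIAp library lay above every NFIAn library of its domain, as did 1.27% of all genes. The 4 called were Cdk1, the kinase of mitotic entry, Nusap1, a protein that bundles spindle microtubules, and the kinetochore genes Cenpf and Nuf2.

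Cdk1 had 13400, 16630 and 15320 normalised counts in p2 NFIAp libraries, against 5910, 9768 and 10780 in p2 NFIAn libraries. In pM it had 11100, 8069 and 9434 in NFIAp libraries, against 3205 and 3892 in NFIAn libraries. The gates did not overlap in either domain, and the log2 difference was 1.12 ± 0.20 (SE, 6 against 5 libraries, adjusted p = 0.00314). Nusap1 had 7173, 7419 and 6996 in p2 NFIAp libraries, against 4192, 5468 and 3456 in p2 NFIAn libraries, and in pM 4927, 2596 and 3057 in NFIAp, against 1520 and 1482 in NFIAn. It rose by 0.96 ± 0.20 (adjusted p = 0.027), again without overlap within a domain. Cenpf, at 3998, 3780 and 2690 in p2 NFIAp against 1680, 1964 and 1600 in p2 NFIAn and at 2330, 1826 and 1473 in pM NFIAp against 1102 and 844 in pM NFIAn, rose by 0.96 ± 0.22 (adjusted p = 0.0379). Nuf2, whose protein is part of the NDC80 complex that grips microtubules, had 1949, 1915 and 2109 in p2 NFIAp against 1276, 1513 and 1039 in p2 NFIAn, and 1389, 1036 and 850 in pM NFIAp against 698 and 523 in pM NFIAn. It rose by 0.74 ± 0.17 (adjusted p = 0.0356).

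The remaining genes differed less or more variably, and none passed the call. Among those whose gates did not overlap, Aurkb, the kinase of the chromosomal passenger complex, had a log2 difference of 0.99 ± 0.27 (adjusted p = 0.117), Prc1 of the spindle midzone 0.99 ± 0.27 (0.12), the motor Kif11 0.98 ± 0.27 (0.134), Top2a, which untangles DNA, 0.91 ± 0.25 (0.128) and the proliferation marker Mki67 0.85 ± 0.27 (0.23). Ube2c, the ubiquitin-conjugating enzyme of mitotic exit, had 16190, 19260 and 20220 normalised counts in p2 NFIAp libraries against 5720, 12630 and 9978 in p2 NFIAn libraries, and 11640, 10850 and 8213 in pM NFIAp against 5047 and 7280 in pM NFIAn, a difference of 0.89 ± 0.29 (adjusted p = 0.228). Ccnb1 stood at 0.55 ± 0.23, Aurka at 0.75 ± 0.23, Plk1 at 0.77 ± 0.38 and Foxm1 at 0.65 ± 0.30. The values nearest 0 were those of Ccnb2 (0.06 ± 0.18), Cdc20 (0.11 ± 0.20) and Kif2c (0.13 ± 0.26). Mybl2 was the 1 gene fitted lower, at -0.19 ± 0.27, with 467, 484 and 520 in p2 NFIAp libraries against 665, 649 and 1005 in p2 NFIAn libraries. By role, the medians were highest for chromosome proteins (0.88), the kinetochore (0.774) and the 2 mitotic kinases (0.759), and lowest for the transcription factors (0.228) and CDK1 with its cyclins (0.355).

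**Figure D3:**
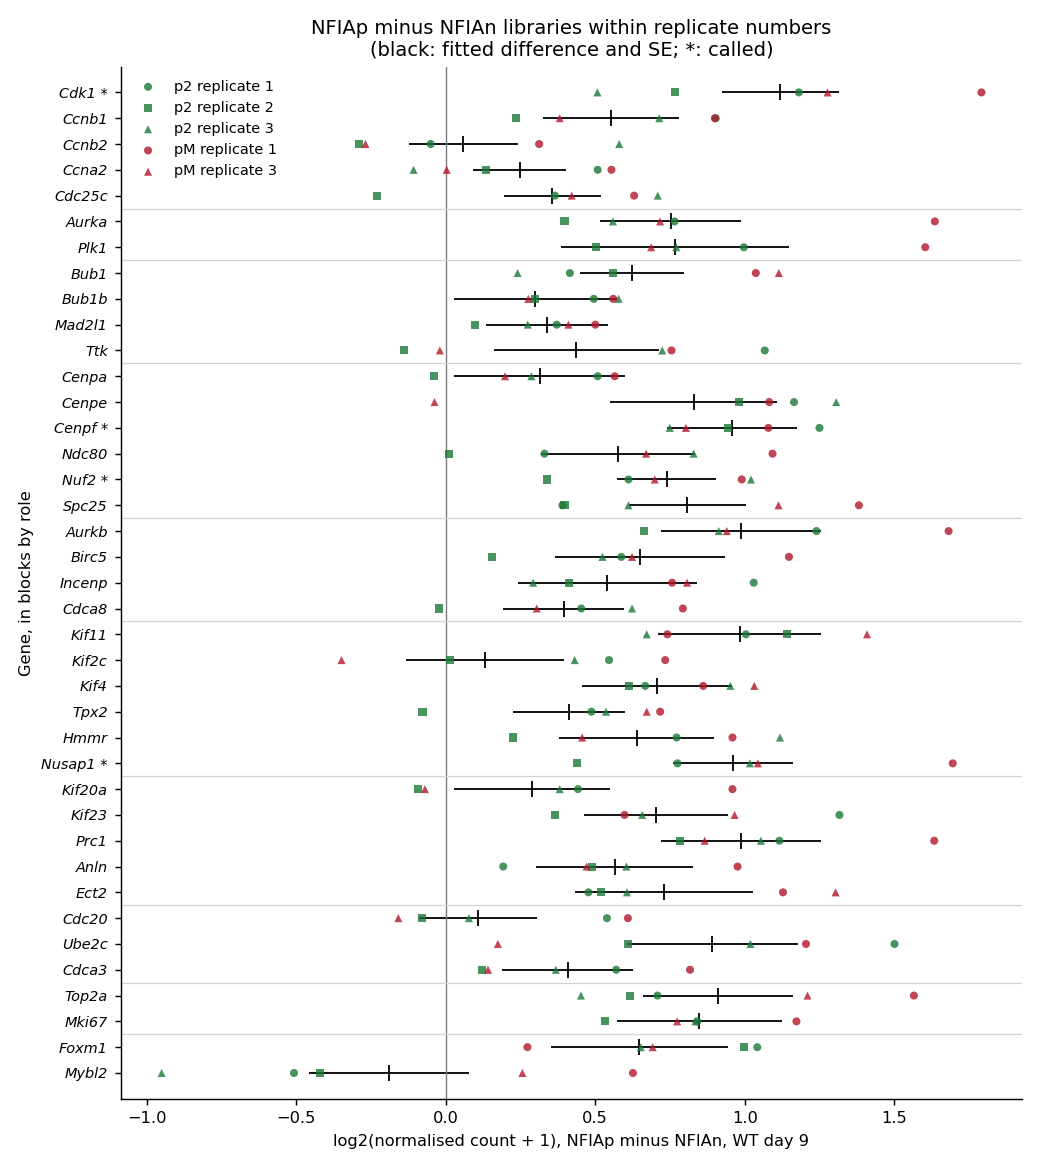
Log2 difference of NFIAp minus NFIAn libraries at D9 in WT for each of the 39 genes, in blocks by role, with a point for each domain and replicate number and a black mark for the fitted difference with a bar of 1 SE on either side. Of the 39 fitted differences 38 lie above 0, and that of Cdk1 is the highest at 1.12; stars mark the 4 genes called.

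Set side by side by replicate number, the gates differed in the same direction each time. The median of the 39 genes was 0.611, 0.366 and 0.611 for p2 replicates 1, 2 and 3 and 0.959 and 0.67 for pM replicates 1 and 3. The medians within domains were 0.55 in p2 and 0.626 in pM. The difference of the gate effect between pM and p2 was called for none of the 39 genes in limma or edgeR, with 0.00636% of all genes called in limma. None of the 39 had an unadjusted p under 0.05 in limma, against 574 of all 15714 genes. Of 36 S phase genes none was called, 9 had an unadjusted p under 0.05, and 24 were fitted lower, with a median of -0.095. Among 110 other genes of G2 and M, from a list also chosen with results of these data known, 2 rose, among them Cenpl, which acts at the centromere. Tfdp2, a partner of E2F proteins, fell. Cenpl differed by 1.12 ± 0.17 (adjusted p = 0.000496) and Tfdp2 by -0.55 ± 0.12 (adjusted p = 0.0335). The median of the 110 was 0.305, and that of the 17 genes listed for the anaphase-promoting complex was -0.008. That list holds its subunits together with Fzr1, Ube2s and Fbxo5, which are not subunits. Among the genes of that list that were not called, the largest differences were 1.21 for Casc5 (adjusted p = 0.349), a kinetochore scaffold also named Knl1, and 1.15 for Sgol2a (adjusted p = 0.0785), a protector of cohesin.

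Markers of other cells were also compared between the gates, and none of the genes in the mesenchyme, neural crest and progenitor lists was called in limma. Summed mesenchyme markers (8 genes) were 1650 to 3388 in p2 NFIAp against 224 to 347 in p2 NFIAn, and 174 to 602 in pM NFIAp against 70 to 214 in pM NFIAn, with a median log2 difference of 2.39 and 7 of 8 at an unadjusted p under 0.05. Among them Col3a1 was 851.2 to 1499 in p2 NFIAp against 100.4 to 151 in p2 NFIAn, and Lum was listed at 0 in a pM NFIAp library. Summed neural crest markers were 742 to 1698 in p2 NFIAp against 270 to 458 in p2 NFIAn, with 2 of 6 genes at an unadjusted p under 0.05. Progenitor markers were 93160 to 151200 in p2 NFIAp against 77820 to 111000 in p2 NFIAn, and 107700 to 155900 in pM NFIAp against 76240 to 84560 in pM NFIAn, with 2 of 10 genes at an unadjusted p under 0.05. Foxn4, a p2 marker, was 306.7 to 413.1 in p2 NFIAp against 570 to 731.7 in p2 NFIAn. The part of these in the result was not tested. Nfia RNA averaged 724.3 in p2 NFIAp against 234.6 in p2 NFIAn, and 1084 in pM NFIAp against 476 in pM NFIAn. The ribosomal share was 5.01%, 9.47% and 7.59% in p2 NFIAp against 5.48%, 11.4% and 10.6% in p2 NFIAn, and 5.82%, 11.7% and 11.2% in pM NFIAp against 6.16% and 10.7% in pM NFIAn. With it as a covariate 16 genes were called higher at a median of 0.61, and 137 of all 15714 genes were called higher. No gene was called with the compared groups alone or without the 18 libraries that stood apart, where the medians were 0.64 and 0.80, and the count was 2 with TMM scaling. Cdk1 was called whichever 1 of the 11 libraries was left out and was lost in these 2 of 9 alternatives, with adjusted p-values up to 0.0843. The count was 1 without p2 NFIAn replicate 3, p2 NFIAp replicate 1, pM NFIAn replicate 3 or pM NFIAp replicate 1, and 2 without p2 NFIAp replicate 2.

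At D11 relative to D9, the NFIAp cells of WT had less mitotic RNA, with genes called lower in every role but the transcription factors. Of the 39 genes 30 fell and none rose, against 3.98% of all genes that fell and 6.16% that rose, and the median was -1.09 against 0.049 over all genes. In 19 genes every D11 library lay below every D9 library of its domain, as did 5.65% of all genes. All 5 genes of CDK1 and its cyclins, all 6 of the kinetochore and all 3 of mitotic exit and ubiquitin ligation fell. So did 5 of 6 spindle genes, 3 of 4 passenger genes, 3 of 5 midzone genes and 2 of 4 checkpoint genes.

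Birc5, which encodes the passenger protein survivin, had 5115 and 4786 normalised counts in p2 and 2629 and 3390 in pM at D11. At D9 it had 10800, 16180 and 15970 in p2 NFIAp and 9811, 9130 and 8851 in pM NFIAp. The D11 libraries were all lower than the D9 libraries, and Birc5 fell by 1.57 ± 0.30 on the log2 scale (adjusted p = 0.00026). Cenpa, the centromeric histone, had 6385 and 6881 in p2 and 3124 and 4765 in pM at D11, against 12380, 17700 and 16810 in p2 and 11300, 10810 and 10590 in pM at D9. It fell by 1.36 ± 0.30 (adjusted p = 0.00174), without overlap. Ube2c, at 7011 and 6954 in p2 and 3239 and 5729 in pM at D11 against the D9 values above, fell by 1.32 ± 0.30 (adjusted p = 0.0024). Cdk1 had 5892 and 7115 in p2 and 3128 and 5368 in pM at D11 and fell by 1.21 ± 0.21 (adjusted p = 5.07e-05).

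Aurka fell by 1.30 ± 0.25, Ccnb1 by 1.21 ± 0.24, Top2a by 1.21 ± 0.26 and Mki67 by 0.89 ± 0.29 (adjusted p = 0.000263, 0.000427, 0.00149 and 0.0377). The 9 genes not called were all fitted lower. Foxm1 stood at -0.27 ± 0.31, Kif2c, a microtubule depolymerase, at -0.53 ± 0.28, Bub1b at -0.66, Mybl2 at -0.80 (adjusted p = 0.0612) and Plk1 at -1.10 ± 0.40 (adjusted p = 0.0687), beside Ttk, Kif20a, Prc1 and Incenp. Of 36 S phase genes 21 fell, with a median of -0.813, and of the 110 other G2 and M genes 43 fell, with a median of -0.69. The largest there were Cit, the citron kinase of cytokinesis (-1.86), and the kinetochore genes Cenpw (-1.72) and Ska1 (-1.48). Of the 17 genes listed for the anaphase-promoting complex 2 fell, and of 11 DREAM and MMB subunits none did. Of these 11, 3 had an unadjusted p under 0.05, against 3727 of all 15714 genes. Of 8 mesenchyme markers 3 rose over the same days, and their part in the result was not tested. The ribosomal share was 7.29% and 4.54% in p2 and 7.02% and 4.38% in pM at D11, and with it as a covariate 38 genes fell at a median of -1.12. In that fit 1039 of all 15714 genes fell. Aurka (-1.51), Ccnb1 (-1.36), Top2a (-1.49) and Mki67 (-1.015) then fell further. The count was 17 without WT D11 pM replicate 2 and 16 with the compared groups alone.

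In NFIAn cells of WT, few of the genes were called at D7 and most at D9. At D7 relative to D5, 3 fell and none rose, against 9.51% of all genes that fell and 10.0% that rose, and the median was -0.31 against -0.016. The members were thus called no more often than all genes. The 3 were Hmmr, a spindle-associated protein (-0.79 ± 0.21, adjusted p = 0.00491), Cenpe, a kinetochore motor (-0.73 ± 0.22, 0.016), and the checkpoint kinase Bub1 (-0.61 ± 0.14, 0.00117). Bub1 had 1120, 1454 and 1828 normalised counts as its lowest, median and highest in the 9 libraries of D7, against 1886, 2328 and 2631 in the 8 of D5, so that no D7 library reached the lowest at D5. Cdk1 had 6994, 8307 and 10870 as its lowest, median and highest at D7, against 6715, 8022 and 9108 at D5, and overlapped (0.07 ± 0.16). Nusap1 (0.00 ± 0.16), Cenpa (-0.01 ± 0.23) and Cdc25c, the phosphatase that activates CDK1 (-0.02 ± 0.13), had the smallest differences. Among the other regulators, Ccnb1 stood at -0.09, Aurka at -0.10, Plk1 at -0.32, Top2a at -0.21, Mki67 at -0.46, Foxm1 at -0.43 and Mybl2 at -0.43, none of them called. Of 12 neuron markers 11 rose in the same comparison, and their part in it was not tested. The count was 5 without D5 p1 replicate 2 or D7 p1 replicate 1, 6 without D7 p2 replicate 2 and 8 without D7 pM replicate 2. With the ribosomal share as a covariate 16 fell and 2 rose, and of all 15714 genes 2584 fell and 2931 rose.

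At D9 relative to D7, 25 of the 39 genes fell in WT NFIAn cells and none rose, against 8.09% of all genes that fell and 6.3% that rose, with a median of -0.61 against -0.033. Incenp, the scaffold of the passenger complex, had 238.2, 475.5 and 597.8 normalised counts as its lowest, median and highest in the 8 libraries of D9, against 604.6, 1259 and 1650 in the 9 of D7. Its ranges did not overlap, and it fell by 1.39 ± 0.24 (adjusted p = 3.8e-05). Plk1, the polo kinase, fell by 1.09 ± 0.30 (adjusted p = 0.0109) and Anln, the anillin of the cleavage furrow, by 1.08 ± 0.21 (adjusted p = 0.000233). All 5 midzone genes, both kinases and both transcription factors fell, among them Foxm1 by 0.85 and Mybl2 by 1.04 (adjusted p = 0.0101 and 0.000468). Cdk1 fell by 0.71, Aurka by 0.71 and Top2a by 0.88 (adjusted p = 0.00116, 0.00722 and 0.0018), whereas Ccnb1 (-0.45 ± 0.18, adjusted p = 0.0885) and Mki67 (-0.61 ± 0.22, adjusted p = 0.0519) were not called. None of the 3 genes of mitotic exit and ubiquitin ligation was called. Ccnb2 (-0.05), Cenpa (-0.05) and Cdc25c (-0.06) had the smallest differences. The medians within domains were -0.713 in p1, -0.212 in p2 and -0.87 in pM. NFIAp cells of p2 and pM were sorted apart at D9 and not at D7, so day and this sort cannot be told apart in these domains. In p2 the mean of the centred members was 0.31 at D7, 0.07 in D9 NFIAn cells and 0.61 in D9 NFIAp cells. In pM it was 0.09, -0.81 and -0.17. Of the S phase genes 19 of 36 fell, and of the other G2 and M genes 46 of 110 fell and 1 rose. With the ribosomal share as a covariate 30 fell, as did 2069 of all 15714 genes.

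Across the whole course the genes fell in all 3 domains of WT. At D11 relative to D5, 33 genes fell in p1 (13.7% of all genes fell and 14.0% rose), 22 in p2 (11.5% fell and 14.2% rose) and 35 in pM (9.69% fell and 10.7% rose), and none rose in any domain. Every D11 library lay below every D5 library for 37 genes in p1, 30 in p2 and 39 in pM, as for 23.3%, 25.9% and 29.0% of all genes. The medians were -1.44, -0.98 and -1.62. The D11 cells were NFIAp and the D5 cells NFIAn, so day and gate cannot be told apart here. Summed neuron markers were 23190 to 44150 at D11 against 2245 to 13920 at D5 over the 3 domains, summed mesenchyme markers 1303 to 7309 against 127.4 to 655.4, and summed neural crest markers 411.2 to 3091 against 55.76 to 113.1, and their part in the result was not tested. In p1 the largest were Incenp (104.6 and 307.7 normalised counts at D11 against 1158, 758.8 and 1255 at D5; -2.52 ± 0.45), Bub1 (-2.38 ± 0.26, adjusted p = 5.47e-10) and Hmmr (-2.38), and Spc25 of the kinetochore (-0.12), Ube2c (-0.53) and Cdc25c (-0.61) had the smallest differences. In p2 the largest were Mybl2, Anln (-1.91) and Incenp (-1.69), and in pM Mybl2, Cenpe (-2.22) and Bub1 (-2.13). Mybl2, a subunit of the complex that activates these genes, had 303.2 and 550.5 in p2 at D11 against 1907, 1456 and 2145 at D5 (-2.15 ± 0.40), and 158.3 and 333.1 in pM at D11 against 1016 and 1558 at D5 (-2.45 ± 0.44). No D11 library of Mybl2 reached the lowest of D5 in its domain.

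Cdk1 differed by -1.06 ± 0.29 in p1 and -1.01 ± 0.32 in pM, both called, and by -0.22 ± 0.29 in p2, not called. Aurka differed by -1.67, -0.61 and -1.73 and Ccnb1 by -1.30, -0.68 and -1.48 in p1, p2 and pM, called in p1 and pM. Plk1 (-2.05, -1.34 and -1.92), Mki67 (-1.25, -0.79 and -1.73) and Foxm1 (-1.44, -0.46 and -1.63) showed the same calls, while Top2a (-1.66, -0.98 and -1.71) and Mybl2 (-2.35, -2.15 and -2.45) were called in all 3 domains. In p2, Nusap1 (0.40), Spc25 (0.35) and Ube2c (0.27) were fitted higher at D11, also not called, with Cdk1, Ube2c and Prc1 (-0.29) nearest 0, and in pM Ube2c (-0.58), Nusap1 (-0.86) and Spc25 (-0.95) had the smallest differences. The F test of a difference among the domains called none of the 39 genes in limma or edgeR, against 0.891% of all genes in limma. At an unadjusted p under 0.05 there were 2, against 1113 of all 15714 genes, so the domains are not shown to differ. The counts of genes that fell rest on 2 libraries at D11 in each domain. They were 15 in p1 without WT D11 p1 replicate 2, 3 in p2 without WT D11 p2 replicate 2, and 8 in pM without WT D11 pM replicate 2 or 22 without WT D5 pM replicate 3. With the compared groups alone they were 17 in p1, 15 in p2 and 1 in pM, where 1162, 1719 and 621 of all 15714 genes fell. In pM the members were then called no more often than all genes. With D11 p1 replicate 3 left out the F test called 1. With the ribosomal share as a covariate 37, 29 and 37 genes fell in p1, p2 and pM, and Ube2c rose in p2 (0.73 ± 0.28, adjusted p = 0.0328). In that fit 3051, 3002 and 2568 of all 15714 genes fell in p1, p2 and pM.

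Averaged over the course, the pM cells carried less mitotic RNA than the p2 cells, though at D5 in WT the median was -0.045, with 15 genes fitted higher. The average took D5, D7, each gate of D9 and D11 with equal weight, so that D9 counted once per gate. On it, all 39 genes were fitted lower in pM than in p2 of WT, and 23 were called lower and none higher, against 3.47% and 1.23% of all genes, with a median of -0.54 against -0.008. Nusap1 (-0.80 ± 0.13, adjusted p = 2.95e-05), Spc25 (-0.74 ± 0.13, 6.32e-05) and Ndc80 (-0.68 ± 0.17, 0.00781) had the largest differences. At D5, Nusap1 had 2732 and 3644 normalised counts in pM against 3603, 2097 and 2879 in p2, which overlap. At D9 it had 1520 and 1482 in pM NFIAn against 4192, 5468 and 3456 in p2 NFIAn, which do not. Top2a differed by -0.68, Aurka by -0.66, Mki67 by -0.60, Cdk1 by -0.52 and Ccnb1 by -0.50, all called, and Foxm1 by -0.58, Plk1 by -0.47 and Mybl2 by -0.39, not called. Cenpa (-0.34), Incenp (-0.35) and Bub1 (-0.39) had the smallest differences.

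By day the median of the 39 genes for pM minus p2 was -0.045 at D5, -0.213 at D7, -0.851 for the NFIAn cells of D9 and -0.778 for the NFIAp cells of D9, and -0.76 at D11 in WT. In MUT it was 0.008, -0.2, -0.696 and -0.676 over the same days, and all 39 genes were fitted lower over all days. The MUT value of D9 rests on 1 library of p2. The change with day was not tested. In WT 23 of the 110 other G2 and M genes were lower in pM, as were 8 of 36 S phase genes and 5 of 8 mesenchyme markers, whose part in the result was not tested. The count of 23 was 15 in edgeR, 14 without WT D11 p2 replicate 3 or WT D9 pM NFIAn replicate 3 and 10 without WT D11 pM replicate 2. Without the 18 libraries that stood apart it was 2, at a median of -0.42, and with the ribosomal share as a covariate it was 37. That covariate fit called 901 of all 15714 genes lower.

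Between p2 and p1, all 39 genes were fitted higher in p2 of WT, with a median of 0.36 against 0.011 over all genes, and 3 were called higher and none lower, against 1.28% and 0.554% of all genes. These were the midzone genes Prc1 (0.68 ± 0.19, adjusted p = 0.0469) and Kif23 (0.65 ± 0.17, 0.0297) and the kinase Aurka (0.65 ± 0.17, 0.0229). Aurka had 4718, 4714 and 5574 normalised counts in p2 NFIAn at D9, against 2354, 1587 and 2684 in p1, without overlap. Mad2l1 (0.08), Cenpa (0.12) and Kif11 (0.14) had the smallest differences, and Cdk1 (0.36), Ccnb1 (0.32), Plk1 (0.59), Top2a (0.47), Mki67 (0.42), Foxm1 (0.60) and Mybl2 (0.46) were not called. The medians by day were 0.04, 0.112, 0.559 and 0.649 in WT at D5, D7, D9 and D11, and 0.175, 0.185, 0.457 and 0.49 in MUT. Here too the MUT value of D9 rests on 1 library of p2. Of 12 neuron markers 4 were higher in p2, and their part in the result was not tested. The count was 0 without WT D11 p1 replicate 2, D11 p2 replicate 3, D5 p1 replicate 2 or D9 p1 replicate 2, and 1 without D5 p2 replicate 1, D5 p2 replicate 3, D7 p1 replicate 3 or D9 p2 NFIAn replicate 2. It was 8 without D11 p1 replicate 3, 0 without the 18 libraries that stood apart, 1 with the compared groups alone and 13 with the ribosomal share as a covariate. That covariate fit called 420 of all 15714 genes higher.

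**Figure D4:**
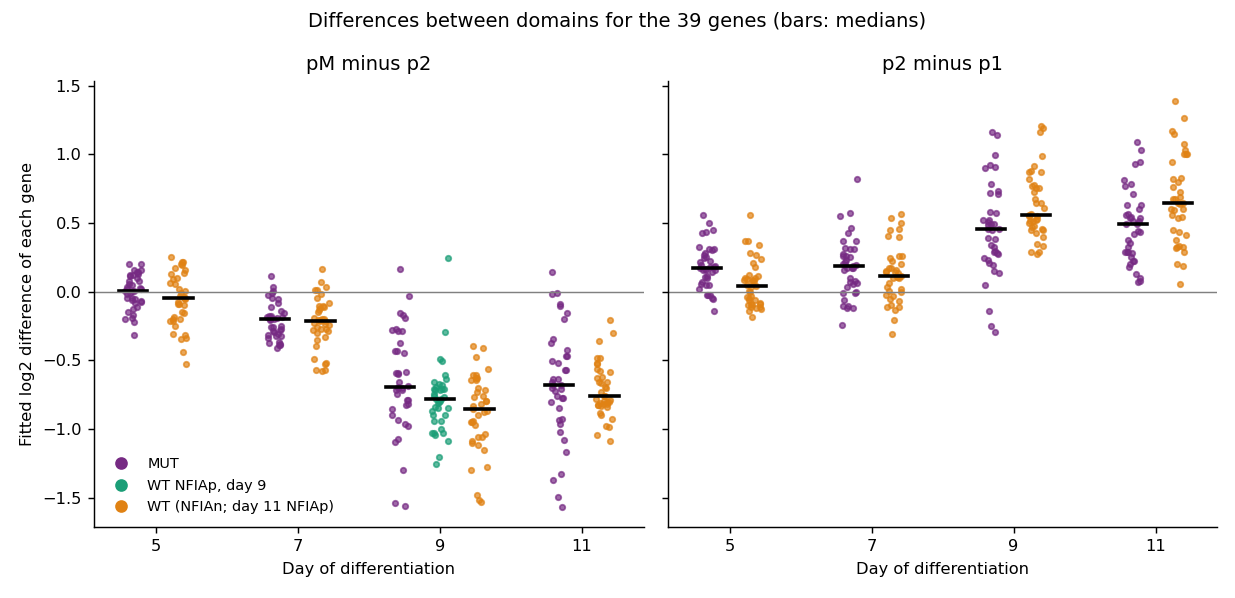
Fitted log2 difference of each of the 39 genes between domains by day, pM minus p2 in the left panel and p2 minus p1 in the right, with 1 point per gene, colours for MUT, WT NFIAp of D9 and the other WT groups, and bars at the medians. In WT the median of pM minus p2 is -0.045 at D5 and -0.76 at D11, and that of p2 minus p1 is 0.04 and 0.649 on the same days. The MUT points of D9 rest on 1 library of p2.

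MUT cells, all sorted as NFIAn, had less of these RNAs at D11 than at D5. At D11 relative to D5, 35 of the 39 fell and none rose, against 22.0% of all genes that fell and 24.1% that rose, with a median of -1.01. Summed neuron markers were 29830 to 37030 at D11 against 1653 to 11660 at D5 over the 3 domains, summed mesenchyme markers 936.1 to 5279 against 133.9 to 628.1, and summed neural crest markers 496.7 to 3094 against 78.62 to 216.1, and their part in the result was not tested. The days did not overlap in any domain for 26 genes, as for 11.9% of all genes. Anln had 347.9 and 473.5 normalised counts in p1, 530.4 and 555 in p2 and 186.7 and 487.2 in pM at D11, while its 9 libraries of D5 ran from 1105 through a median of 1495 to 1765. The days did not overlap, and Anln fell by 1.81 ± 0.23 (adjusted p = 4.3e-09). Hmmr fell by 1.72 and Cenpe by 1.70. Mybl2 fell by 1.61, Mki67 by 1.35, Top2a by 1.08, Foxm1 by 1.07, Plk1 by 1.01, Aurka by 0.79 and Ccnb1 by 0.66. Cdk1 fell by 0.76 ± 0.17 (adjusted p = 0.000207) with overlapping days. Spc25 (-0.15), Nusap1 (-0.37), Cdc20 (-0.39) and Ube2c (-0.53) were not called. With the ribosomal share as a covariate 33 genes fell, as did 4481 of all 15714 genes.

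Within that course, 7 genes fell and 4 rose in MUT at D7 relative to D5 (14.3% of all genes fell and 16.5% rose), with a median of -0.20. The members were thus called about as often as all genes, and the values below describe single genes. Bub1b, the checkpoint protein BUBR1, had 1375, 1813 and 980.5 in p1, 1740, 1780 and 1103 in p2 and 1241, 1584 and 991.3 in pM at D7, against 2190 to 3122 at D5, and fell by 0.92 ± 0.21 (adjusted p = 0.000847). Kif20a (-0.68), Mybl2 (-0.67), Cenpe, Kif2c, Hmmr and Bub1 fell as well. Spc25 (0.62), Ube2c (0.61), Birc5 (0.57) and Cdca3 (0.47) rose. Birc5 had 5144, 6293 and 15310 in p1, 5455, 6641 and 13600 in p2 and 4477, 5580 and 10230 in pM at D7, against 4376 to 5888 at D5. Replicate 3 of each D7 group, which is among the 18 libraries named above, was the highest for Birc5 and the lowest for Bub1b. Among genes not called, Cdk1 stood at 0.14, Ccnb1 at -0.11, Aurka at -0.20, Plk1 at -0.61, Top2a at -0.23, Mki67 at -0.44 and Foxm1 at -0.49, and Ccna2 (-0.00), Aurkb (0.04) and Cdc20 (-0.05) were nearest 0. Without the 18 libraries of that kind, 2 of the 39 genes were called. With the ribosomal share as a covariate 5 fell and 4 rose, and Cenpe and Hmmr were not called. In that fit 2027 of all 15714 genes fell and 2888 rose. The count of 11 was 7 without MUT D5 p2 replicate 3 and 5 without replicate 3 of D7 p1, p2 or pM.

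At D9 relative to D7, Anln (-1.15 ± 0.25, adjusted p = 0.00136), Hmmr (-0.92, 0.0102) and Kif11 (-0.77, 0.0472) fell in MUT and none rose, against 4.78% of all genes that fell and 4.93% that rose, with a median of -0.29. Here too the members were called about as often as all genes. Kif20a (-0.02), Spc25 (0.06) and Birc5 (-0.07) were nearest 0, and Cdk1 (-0.09), Ccnb1 (-0.13), Aurka (0.19), Plk1 (-0.12), Top2a (-0.53), Mki67 (-0.50), Foxm1 (-0.58) and Mybl2 (-0.20) were not called. The count was 1 without MUT D9 p1 replicate 3, and 19 with the ribosomal share as a covariate, where 1990 of all 15714 genes fell. At D11 relative to D9, 14 fell and none rose, against 3.67% of all genes that fell and 5.52% that rose, with a median of -0.44. For 15 genes the D11 libraries lay below those of D9 in each domain, as for 4.17% of all genes, with 1 library in p2 at D9. Those that fell included Birc5 (-1.12 ± 0.29, adjusted p = 0.00921), Ndc80 (-0.96), Ube2c (-0.96), Cenpa (-0.95), Aurka (-0.78, adjusted p = 0.0309) and Cdk1 (-0.81, adjusted p = 0.00647). Foxm1 (0.01), Bub1b (0.04) and Kif11 (-0.20) were nearest 0, and Plk1 (-0.28), Top2a (-0.31), Mki67 (-0.41), Ccnb1 (-0.42) and Mybl2 (-0.74) were not called. The count was 9 without MUT D11 p1 replicate 3 or pM replicate 3 and 4 without MUT D11 p2 replicate 3, and 2 with the compared groups alone. It was 30 with the ribosomal share as a covariate, that share being 7.70% and 4.31% in p1, 5.95% and 2.53% in p2 and 7.46% and 3.33% in pM at D11. In that fit 776 of all 15714 genes fell. Birc5 then stood at -0.62, Cenpa at -0.44, Ube2c at -0.48 and Cdk1 at -0.59, and Cenpa and Ube2c were not called. Ndc80 (-1.18) and Aurka (-1.085) fell further.

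Between the genotypes, no gene was called at D5 or D7, Nuf2 was called at D9, and Nuf2 and Tpx2 were called at D11. At D5 none of the 39 genes was called between MUT and WT in limma or edgeR, against 0.458% of all genes in limma, with a median of 0.002. None had an unadjusted p under 0.05, against 1209 of all 15714 genes. Birc5 (-0.40 ± 0.23), Cdca3 (-0.33 ± 0.18) and Mki67 (0.32 ± 0.22) had the largest differences. At D7 none was called in limma or edgeR, against 2.03% of all genes in limma. An unadjusted p under 0.05 was found for 3, against 2200 of all 15714 genes. Ndc80 (0.38 ± 0.20), Nuf2 (0.37 ± 0.13) and Cenpe (0.34 ± 0.21) had the largest differences at D7. With the ribosomal share as a covariate 7 were called at D7, 6 higher and 1 lower, against 518 and 824 of all 15714 genes. At D9, with both genotypes NFIAn, 37 genes were fitted higher in MUT with a median of 0.40. An unadjusted p under 0.05 was found for 16, against 1435 of all 15714 genes. Nuf2 alone was called, higher, against 0.356% of all genes called higher and 0.344% lower. WT p2 and pM cells were also sorted as NFIAp at D9, and no MUT cells were. Genotype and the removal of NFIAp cells therefore cannot be told apart in p2 and pM, and Nuf2 was also called for the gate. The medians within domains were 0.42 in p1, 0.248 in p2 and 0.563 in pM. Nuf2 had 1795 and 1156 normalised counts in p1, 1494 in p2 and 1225 and 1228 in pM of MUT, against 1048, 870 and 776 in p1, 1276, 1513 and 1039 in p2 and 698 and 523 in pM of WT. The genotypes overlapped in p2 and did not in p1 and pM, and the log2 difference was 0.65 ± 0.16 (adjusted p = 0.032). In 7 genes, Cdk1 among them (0.62 ± 0.19, adjusted p = 0.132), no library overlapped within a domain, as in 1.56% of all genes. Plk1 (0.75), Incenp (0.74) and Aurka (0.69) had the largest differences, and none of them was called, while Birc5 (-0.05), Mad2l1 (0.10) and Cenpa (0.11) were nearest 0. The count was 0 without MUT D9 p1 replicate 1, pM replicate 1 or pM replicate 3, or without replicate 3 of WT D9 NFIAn p1, p2 or pM. It was also 0 with the compared groups alone and with libraries of 1 genotype, day and number correlated, and 4 with the ribosomal share as a covariate. That covariate fit called 161 of all 15714 genes higher.

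At D11 the MUT cells were NFIAn and the WT cells NFIAp, so genotype and gate cannot be told apart. Nfia RNA was present in both, at 1014 to 1128 in p1, 1699 to 2177 in p2 and 1892 to 1991 in pM of MUT, against 1593 to 3639 in p1, 1096 to 1815 in p2 and 1770 to 1909 in pM of WT. The MUT libraries were lower in p1 without overlap. Nuf2 and Tpx2, an activator of Aurora A, were called higher in MUT and none lower, against 1.8% and 2.34% of all genes, while 36 of the 39 were fitted higher with a median of 0.32. Nuf2 had 1084 and 1300 in p1, 1825 and 1305 in p2 and 735 and 899 in pM of MUT, against 488 and 564 in p1, 665 and 1248 in p2 and 435 and 981 in pM of WT. Its libraries overlapped in pM, and the difference was 0.75 ± 0.16 (adjusted p = 0.00177). Tpx2 had 1696 and 2419 in p1, 3136 and 2782 in p2 and 1504 and 1995 in pM of MUT, against 1103 and 1384, 1537 and 2303, and 647 and 1789 in the same domains of WT, a difference of 0.68 ± 0.18 (adjusted p = 0.0154). Incenp (0.91 ± 0.28, adjusted p = 0.0521) and Plk1 (0.83, 0.199) had the largest differences and were not called, and Foxm1 (0.03), Cdca3 (0.05) and Cdk1 (-0.07) were nearest 0. Of 36 S phase genes 14 were higher in MUT. The count of 2 was 1 without MUT D11 p1 replicate 3 or without replicate 2 of WT D11 p1, p2 or pM, and it was 7, 5 and 10 without replicate 3 of WT D11 p1, p2 and pM. It was 0 with the compared groups alone and with libraries of 1 genotype, day and number correlated, and 4 with the ribosomal share as a covariate. That covariate fit called 521 of all 15714 genes higher. The change at D11 relative to D5, MUT minus WT, was fitted above 0 for 37 genes, with a median of 0.37. It was called for none in limma or edgeR, against 0.77% of all genes in limma. At an unadjusted p under 0.05 there were 5, against 1372 of all 15714 genes. Plk1 (0.76), Incenp (0.72) and Mybl2 (0.70) had the largest values and Cdk1 (0.00), Nusap1 (0.03) and Cenpf (0.05) the smallest. Without WT D11 pM replicate 3 it was called for 2 genes.

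Within groups, most of the 39 genes went up and down together from library to library, and 6 did not. With the group mean of each gene subtracted, over the 65 libraries of groups with more than 1 library, Pearson's r with the mean of the other members was highest for Tpx2 (0.902), Ccnb1 (0.853) and Prc1 (0.844). It was lowest for Cenpa (-0.238), Birc5 (-0.226), Ube2c (-0.148), Cdca3 (0.064), Mad2l1 (0.143) and Cdk1 (0.157). These 6 correlated positively with the ribosomal share of the library, with r of 0.513 to 0.809, while the other 33 had a median r of -0.617 with it, between -0.867 for Plk1 and 0.211, with 6 of the 33 above 0. Cenpa in WT D7 pM had 7168, 6928 and 20500 normalised counts in replicates 1, 2 and 3, whose ribosomal shares were 6.93%, 5.88% and 15.4%. Over the 39 genes, exonic length (GENCODE M21) had an r of -0.23 with the correlation to the ribosomal share. The correlation with the other members had an r of -0.897 with the correlation to that share. The libraries share sorts, days and size factors, so these correlations describe the libraries, and genes are not independent replicates.

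**Figure D5:**
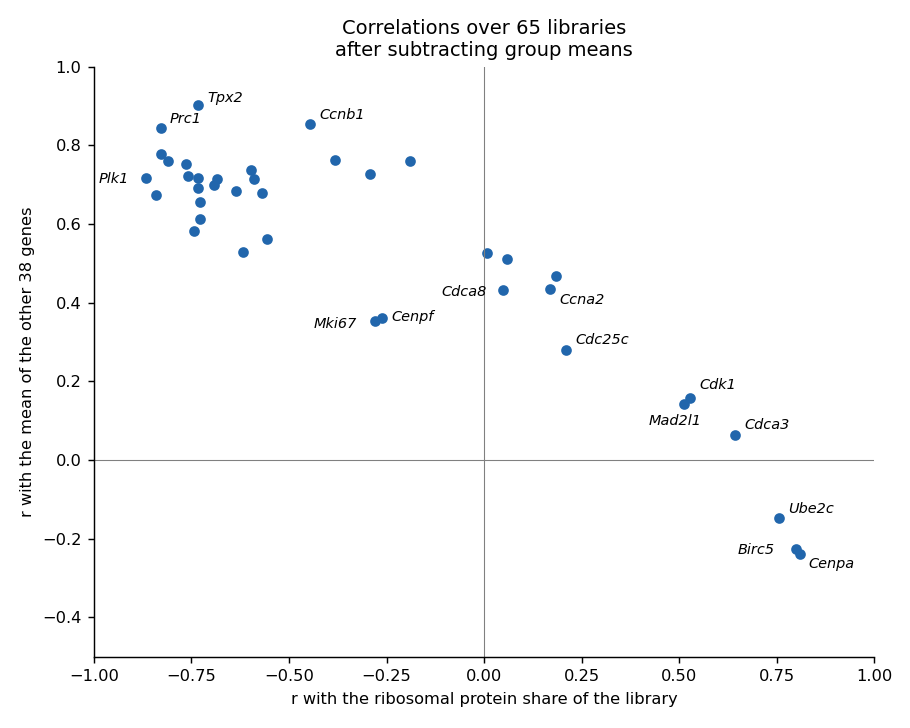
For each of the 39 genes, Pearson's r with the ribosomal protein share of the library (x axis) and with the mean of the other members (y axis), over 65 libraries with group means subtracted. Cenpa, Birc5, Ube2c, Cdca3, Mad2l1 and Cdk1 lie at the right below 0.2, and Tpx2 is the highest at 0.902.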

How the data were processed

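Polyadenylated RNA of 66 libraries was analysed. The deposited values are a signal, namely normalised counts: the authors mapped reads to mm10 and divided counts by DESeq2 size factors, per the submitters' processing notes, with versions not given in the sources used here. Dividing by the value of 1 read gave whole numbers within 0.01 for 100% of values.

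Genes with at least 10 normalised counts in at least 2 libraries (15714 of 24410) were fitted with limma 3.58.1 (R 4.3.3) with a variance trend on log2(value + 1), with 26 group means over all 66 libraries; fold changes on this scale understate those of low genes. Tests were two-sided, with Benjamini-Hochberg adjustment over every gene tested. Differences over domains are means of the differences within domains, and libraries were called not overlapping within each domain. For the single library of MUT D9 p2 the spread of the other groups was assumed. Values are not corrected for gene length, so levels of different genes were not compared. The fit was tested on simulated data. Tables and plots were made with Python 3.11.15, pandas 2.3.3 and matplotlib 3.10.9.

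Alternatives were TMM scaling, edgeR 4.0.16 on recovered reads, a pseudocount of 8, all genes without the filter, a replicate block, correlated libraries, the compared groups alone, leaving out libraries and, chosen after seeing the data, the ribosomal protein share as a covariate. Same-numbered libraries deviated together for every pair in 1 comparison, MUT D9 against D7 (4 of 4 pairs, r 0.179 to 0.275), where the block gave 3 calls, as did the fit without it.

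The members, lists and rule were chosen with earlier results of these data known. The rule named Cdk1, Ccnb1, Aurka, Plk1, Mki67, Top2a, Foxm1 and Mybl2, the 3 largest and the 3 smallest differences in each comparison, and other members by role; comparisons with no gene called are given more briefly. Some genes of the other lists are not reported here by name. Members shown with single libraries beyond these were chosen after their values were seen.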

Additional observations from a re-analysis of the deposited data

How the results depend on the processing

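No difference that was called for a member changed sign under any alternative run. Some that were not called did: with the ribosomal share as a covariate the median for MUT against WT at D5 was -0.017, and in the MUT step to D9 Cdk1 stood at 0.05 and Aurka at -0.01, while Ube2c stood at 0.02 for MUT D11 against D5. Numbers are genes called of the 39. TMM scaling gave 2 for the D9 gate, edgeR 15 for pM against p2 in WT, and a pseudocount of 8 gave 4 for MUT against WT at D11. With a correlation of 0.375 among libraries that share genotype, day and number, the counts were 20 for the gate, 37 for pM against p2, 18 for p2 against p1, 2 for the F test, 4, 1 and 4 for the MUT steps to D7, D9 and D11, and 0 for MUT against WT at D9 and at D11. Of all 15714 genes, that fit called 454 for the gate, 1637 for pM against p2 and 1043 for p2 against p1. The main fit called 32, 740 and 288. Without the 18 libraries of D7 replicate 3 and D9 replicates 2 and 3 they were 0 for the gate, 2 for MUT D7 against D5, 6 for MUT against WT at D11, 2 for pM against p2 and 0 for p2 against p1; for MUT D9 against D7, MUT D11 against D9 and MUT against WT at D9 it could not be fitted. With the compared groups alone they were 0 for the gate, 16 for WT D11 against D9, 17 and 1 for D11 against D5 in p1 and pM, 2 for MUT D11 against D9, 3, 0 and 0 for MUT against WT at D5, D9 and D11, and 1 for p2 against p1. With the ribosomal share as a covariate they were 16 for the gate, 18 for WT D7 against D5, 19 and 30 for the MUT steps to D9 and D11, 7, 4 and 4 for MUT against WT at D7, D9 and D11, 37 for pM against p2 and 13 for p2 against p1. Calls over all genes rose in these comparisons too. For the gate, WT D7 against D5 and the MUT step to D9 they were 202, 5515 and 4313, against 32, 3073 and 1526 in the main fit.

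With the replicate number as a block, the counts were 7 for the gate, 8 for WT D7 against D5 and 4 for MUT against WT at D11; over all 17 comparisons, 52 of 102 same-numbered pairs had r above 0.1 (range -0.225 to 0.401), and in all but MUT D9 against D7 at least 1 pair did not.

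Leaving out 1 library at a time gave 1 to 5 for the gate and 0 to 0 for its difference between domains. It gave 2 to 8, 17 to 27 and 17 to 35 for the WT steps to D7, D9 NFIAn and D11, and 15 to 33, 3 to 21 and 8 to 37 for D11 against D5 in p1, p2 and pM, with 0 to 1 for the F test. In MUT it gave 5 to 11, 1 to 4 and 4 to 14 for the steps to D7, D9 and D11 and 32 to 37 for D11 against D5. For MUT against WT it gave 0 to 0, 0 to 0, 0 to 1 and 1 to 10 at D5, D7, D9 and D11, and 0 to 2 for the change between D5 and D11. It gave 10 to 30 for pM against p2 and 0 to 8 for p2 against p1. The cause of these differences was not tested. The lowest depth was 8.738 M reads, and what depth adds to the errors was not tested.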

Other observations

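The genes outside the 39 whose group means followed their mean most closely were looked up over the 26 group means on the log2 scale, as a description. Sgol1 (r = 0.971) and Sgol2a (0.955), which protect cohesin at centromeres, Fbxo5 (0.968), an inhibitor of the anaphase-promoting complex, and Tacc3 (0.959), a spindle protein, led this list. Mns1 (0.946), Esco2 (0.943), which acetylates cohesin, Oip5 (0.937), a centromere protein, the cyclin gene Ccnf (0.935), Fkbp5 (0.934) and the condensin gene Smc2 (0.933) followed. The gene most opposed to the mean was Calcoco1 (r = -0.896). The groups share days, sorts and libraries of like depth.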
